A study of Mus musculus with 5 samples.

Results

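The genes described are the mouse Hox cluster genes, that is all genes named Hoxa, Hoxb, Hoxc or Hoxd with a number from 1 to 13. A probe was taken as a member when the accession given for it on the array led to such a name in the RefSeq gene table. Of the 39 Hox genes in that table, 36 were measured, through 46 probes, among 18327 named genes on the array. No probe was named here for Hoxc4, Hoxc6 and Hoxc11, which were not analysed here.

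Hox genes encode homeodomain transcription factors that give cells their position along the head-to-tail axis of the embryo. They lie in 4 clusters, on chromosomes 6 (Hoxa), 11 (Hoxb), 15 (Hoxc) and 2 (Hoxd), and genes with the same number in different clusters, called paralogues, are close relatives. Within a cluster, genes with low numbers are switched on earlier and further towards the head than genes with high numbers. In pluripotent cells the clusters are largely held silent by Polycomb complexes, and retinoic acid and the caudal factors are among the signals that open them on differentiation.

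The study fused mouse embryonic stem cells with a mouse hepatoma line and followed the hybrid cells as they differentiated. RNA was measured on 5 Agilent arrays with 1 colour, 1 array for each condition and no replicates. ES is the E14 embryonic stem cell line. EHe is the undifferentiated hybrid of E14 and Hepa1-6, selected with both hygromycin and neomycin, each parent being resistant to 1 of them, EHeD7 and EHeD14 are EHe cells differentiated for 7 and 14 days, also given as day 7 and day 14, and Hepa1-6 is the hepatoma line. The medium of ES and EHe contained leukemia inhibitory factor. By the labels the differentiating hybrids were plated on gelatin in a high glucose medium rich in fetal calf serum and Hepa1-6 was kept in a similar medium with less serum, whereas the methods of the study describe embryoid bodies for differentiation. The medium therefore changed together with the cell state. Hepa1-6 was hybridized on a slide of its own and the other arrays shared 1 slide, so for any difference from Hepa1-6 the slide and the cell line cannot be told apart.

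Values are log2 relative signals, the log2 of the processed signal of a probe minus the 75th percentile of its array, and 0 marks that percentile. The scanner software calls a spot well above background or not, and a probe without that call has only an upper bound. With 1 array for each condition no difference could be tested, and the number of arrays limits the precision. The 245 probes printed 10 times on each array gave a measure of spot noise. Among those that were well above background and had a relative signal under -2, the spots of a probe had a median SD on the log2 scale from 0.12 in EHeD14 to 0.15 in EHe. This SD covers spot noise only, not differences between cultures.

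The labels were checked against cell type markers before the Hox genes were read. Of the ES cell markers Pou5f1, Sox2, Zfp42, Esrrb and Klf4, 5 of 5 measured were well above background on each array except Hepa1-6, where 1 was, Klf4. Their summed relative signal, on the linear scale, was 140 in ES, 146 in EHe, 35.2 at day 7, 25.4 at day 14 and 24.3 in Hepa1-6. Zfp42 was their brightest gene in ES and EHe, Pou5f1 in EHeD7 and EHeD14 and Klf4 in Hepa1-6. Of 5 hepatocyte markers measured, Alb and Afp stood at 6.12 and 6.83 in Hepa1-6. No probe was named here for the markers Nanog and Serpina1a. Ttr and Apoa1 were not well above background on any array, Hepa1-6 included. The summed relative signal of the hepatocyte markers was 0.181 in ES, 0.0573 in EHe, 0.0668 at day 7, 0.0757 at day 14 and 184 in Hepa1-6.

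Few Hox genes were measurable on any array. With the brightest probe standing for each gene, the ES array had 10 of 36 Hox genes well above background (27.8%), the EHe array 12 (33.3%), EHeD7 13 (36.1%), EHeD14 12 (33.3%) and Hepa1-6 8 (22.2%). Over all 41174 probes the same call was made for 62.1%, 56.8%, 67.6%, 63.6% and 54.7%, with ES given before EHe, EHeD7, EHeD14 and Hepa1-6. Over the named genes, with the brightest probe standing for each as for the Hox genes, it was made for 75.8%, 70.2%, 79.4%, 76.5% and 65.4% in the same order. The share of Hox genes well above background was thus below that of other genes on each of the 5 arrays.

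The 36 genes fell into those seen on each array, those seen on some and those seen on none. Hoxa3, Hoxa6, Hoxb7 and Hoxb13 were well above background on 5 of 5 arrays. Those seen on 4 numbered 5, with Hoxa7, Hoxa9, Hoxb9 and Hoxc5 among them. Hoxd13 was seen on 3, Hoxa2, Hoxb4, Hoxb6 and Hoxd1 on 2, and Hoxa4, Hoxa10, Hoxd3 and Hoxd4 on 1. The other 18 genes were not well above background on any array through the probe that stood for them. Among them were Hoxa13, Hoxb1, Hoxb3, Hoxb8, Hoxc10 and Hoxd8 to Hoxd12. Their relative signals lay between -7.57 and -5.20 in ES, -7.12 and -5.24 in EHe, -8.35 and -6.28 at day 7, -7.84 and -5.31 at day 14, and -7.50 and -5.32 in Hepa1-6. These values are bounds, and no order among them was read. Hoxb1, a hindbrain gene and a known target of retinoic acid, was the Hox gene printed 10 times. It stood at -7.26, -6.98, -8.23, -7.69 and -7.40 in ES, EHe, EHeD7, EHeD14 and Hepa1-6, with an SD between spots of 0.45, 0.14, 0.21, 0.13 and 0.12.

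**Figure D1:**
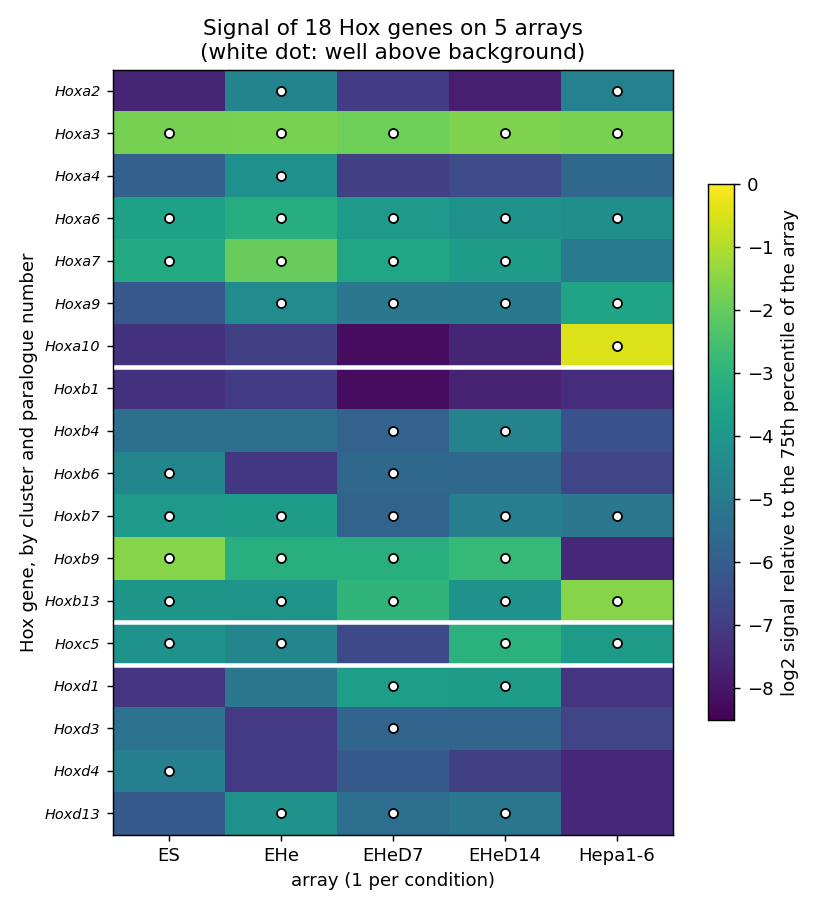
Colour gives the log2 relative signal of the probe that stands for a gene, for 18 of the 36 Hox genes (rows, by cluster and number) on 5 arrays (columns), and white dots mark genes well above background. Hoxa3, Hoxa6, Hoxb7 and Hoxb13 have a dot on each array, and Hoxb1 has none.

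Over all named genes 84.2% were well above background on at least 1 array, against 18 of the 36 Hox genes. The numbers by cluster and by position are small and their differences were not tested. In the Hoxa cluster 8 of 11 measured genes were well above background on at least 1 array, in Hoxb 5 of 10, in Hoxc 1 of 6 and in Hoxd 4 of 9. The Hoxa genes seen numbered 4 in ES, 7 in EHe, 5 at day 7, 5 at day 14 and 5 in Hepa1-6. For Hoxb the numbers were 4, 3, 5, 4 and 2 in that order. Hoxc5 was the sole Hoxc gene seen through its standing probe. Hoxd genes seen numbered 1 in ES, 1 in EHe, 3 at day 7, 2 at day 14 and 0 in Hepa1-6. By position, 8 of 11 anterior genes (numbers 1 to 4), 5 of 10 central genes (5 to 8) and 5 of 15 posterior genes (9 to 13) were seen on at least 1 array. With anterior ending at 3, these were 5 of 8 anterior and 8 of 13 central genes. Anterior genes seen numbered 3, 4, 5, 4 and 2 in ES, EHe, EHeD7, EHeD14 and Hepa1-6, central genes 5, 4, 4, 4 and 3, and posterior genes 2, 4, 4, 4 and 3.

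The comparison of EHe with ES asks how far the Hox genes of the hybrid differed from those of its stem cell parent. A gene was called higher or lower when the brighter array had it well above background and the fold was over 3. For a gene not well above background, the value used was the higher of its own signal and the lowest signal called well above background on that array, which makes the fold a lower bound. Of 36 Hox genes, 0 were called higher in EHe and 1 was called lower, Hoxb9, against 1.83% and 2.03% of all probes. The median difference over the 14 Hox genes well above background on at least 1 of the 2 arrays was 0.27 on the log2 scale, against -0.06 over all probes treated alike.

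Hoxb9, a gene of the thoracic region and its ribs, had relative signals of -1.54 in ES, -3.18 in EHe, -3.18 in EHeD7 and -2.79 in EHeD14, and was not well above background in Hepa1-6 (-7.56). It was thus brightest in ES, and 3.12-fold lower in EHe. That fold lay near the threshold and passed it neither after normexp background correction nor after median centring of the arrays. The other Hoxb9 probe was well above background in ES (-5.08) and EHeD7 (-5.92) and not on the other arrays. Hoxd13, a gene of the digits and the end of the body axis, was seen in EHe (-4.12) but not in ES (-6.09), at least 2.44-fold higher.

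On differentiation no Hox gene was called higher than in EHe at either day. A gene dim in EHe counted there at -4.83 or above, the highest such limit of the arrays, which made a call of higher harder to reach. In EHeD7 against EHe, 0 of 36 Hox genes were called higher and 3 were called lower, Hoxa4 and Hoxb7 among them, where 3.69% of all probes were higher and 2.58% lower. In EHeD14 against EHe, 0 were called higher and 2 lower, Hoxa7 among them, where 3.84% of probes were higher and 2.71% lower. Those lower at day 7 numbered 6 after quantile normalization or median centring and 1 after normexp, and those lower at day 14 numbered 1 after normexp. With 36 genes, 0 called higher is close to the shares over all probes, and no difference from them was tested. Both days were set against the same EHe array, so the 2 comparisons are not independent. At day 14 the median difference over 14 Hox genes was -0.78, against -0.08 over all probes. At day 7 it was -0.95 over 16 Hox genes, against -0.14. Of these, Hoxb4, Hoxb6 and Hoxd3 were seen at day 7 and not in EHe, at signals under the EHe limit. Neither direction could be read from these 3, and the rule for dim genes entered them at that limit. Leaving them out, an alternative chosen afterwards, gave -1.32 over 13 Hox genes, against -0.08 over all probes with a fold. That alternative kept Hoxa2, Hoxa4 and Hoxc5, seen in EHe and not at day 7, so it lowers the median by construction. After normexp the medians were -0.17 at day 7 and -0.32 at day 14. The 18 Hox genes seen on no array also lay lower after differentiation, with median signals of -6.71 in EHe, -7.61 at day 7 and -7.40 at day 14. Signals at background level thus differed between these arrays in the same direction as the Hox medians. How much of those medians this accounts for was not tested.

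Hoxa7, a gene of thoracic patterning, had relative signals of -3.29 in ES, -1.96 in EHe, -3.46 in EHeD7 and -3.81 in EHeD14, and was not well above background in Hepa1-6 (-4.98). EHe was its brightest array. The signal was 3.60-fold lower in EHeD14 than in EHe, and not after normexp, where the difference was -1.24 on the log2 scale. Hoxb7, its paralogue in the Hoxb cluster, had relative signals of -3.95 in ES, -3.85 in EHe, -5.75 at day 7, -4.87 at day 14 and -5.12 in Hepa1-6. It was lowest in EHeD7, 3.73-fold below EHe, a call lost after normexp (-0.54).

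Hoxa4, a gene of cervical vertebrae, was well above background in EHe alone (-4.22) through its standing probe, and stood at -5.88 in ES, -6.89 in EHeD7, -6.57 in EHeD14 and -5.66 in Hepa1-6. It was at least 3.77-fold lower in EHeD7 than in EHe. The other Hoxa4 probe had its only call in EHeD14 (-5.20) and stood at -5.80 in EHe, so that the 2 probes placed the gene on different arrays. With the mean of both probes the difference was -1.12 and the call was lost, as it was after normexp (-0.55).

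**Figure D2:**
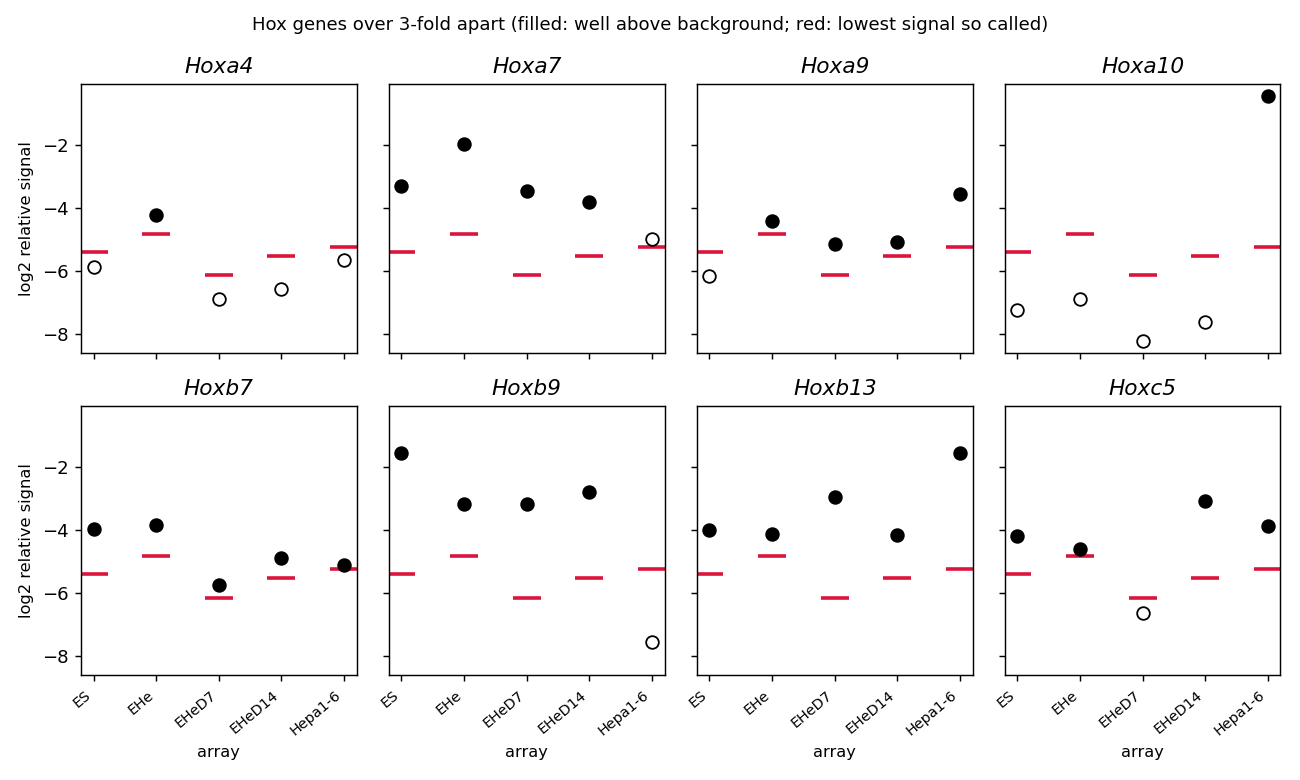
Each panel gives the log2 relative signal of a Hox gene on the 5 arrays, for 8 of the 9 genes called between ES and EHe, between EHe and its differentiated cells, between both days, or between ES and Hepa1-6. Filled points are well above background, open points are not, and red marks give the lowest signal so called on each array, such as Hoxa10, filled in Hepa1-6 alone.

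At a 2-fold threshold 2 Hox genes were higher than EHe at day 7, Hoxb13 and Hoxd1, and 7 were lower. At day 14, 2 were higher, Hoxc5 and Hoxd1, and 5 were lower. No share over all probes is given at 2-fold, so these counts have nothing to be set against. Hoxd1, a gene of sensory neurons, was the 1 gene higher by over 2-fold at both days. Hoxd1 was not well above background in ES (-7.23), EHe (-5.12) or Hepa1-6 (-7.20), and stood at -3.75 in EHeD7 and -3.80 in EHeD14. It was at least 2.11-fold higher than EHe at day 7 and at least 2.04-fold higher at day 14, both under 3-fold. Neither day stayed past 2-fold after quantile normalization (0.89 and 0.88 on the log2 scale at day 7 and day 14), median centring (0.91 and 0.89) or normexp (0.39 and 0.49). Against ES in place of EHe it was called, at least 3.14-fold higher at day 7 and at least 3.03-fold at day 14. In those comparisons Hoxd1 was the 1 Hox gene called higher at each day, where 4.86% and 4.87% of all probes were. Called lower than ES were 4 Hox genes at day 7, with Hoxb7, Hoxb9 and Hoxc5 among them, and 1 at day 14, where 4.29% and 4.22% of all probes were.

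Between both days of differentiation, 1 Hox gene was called higher at day 14, Hoxc5, and 0 were called lower, against 0.454% and 0.432% of all probes. Hoxc5, a gene of the cervical and upper thoracic region, had relative signals of -4.18 in ES, -4.59 in EHe, -3.08 in EHeD14 and -3.86 in Hepa1-6, and was not well above background in EHeD7 (-6.64). It was at least 8.31-fold higher in EHeD14 than in EHeD7, and 2.84-fold higher in EHeD14 than in EHe. The call between the days was lost after normexp (0.90). The median difference over 14 Hox genes was 0.16, against 0.02 over all probes. Hoxb13, with -2.94 in EHeD7 and -4.14 in EHeD14, differed in the other direction and did not pass 3-fold.

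The comparison of Hepa1-6 with ES sets the 2 parents of the hybrid side by side. Here 3 Hox genes were called higher in Hepa1-6, Hoxa9, Hoxa10 and Hoxb13, against 9.25% of all probes, and 3 were called lower, with Hoxa7 and Hoxb9 among them, against 12.4%. The median difference over 13 Hox genes was -0.42, against -0.30 over all probes. Its sign depended on the scaling, with 0.40 after quantile normalization and 0.34 after median centring. Median centring also moved the median difference of all probes, whether well above background or not, from -0.13 to 0.63.

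Hoxa10, a gene of the lumbar region, the limb and the uterus, was well above background in Hepa1-6 alone (-0.45). It stood at -7.25 in ES, -6.89 in EHe, -8.22 in EHeD7 and -7.63 in EHeD14, none of them well above background. Its processed signal was 1024 in Hepa1-6 with a scanner error of 102.8, and between 4.32 and 10.8 on the other arrays. Hepa1-6 was thus at least 31.0-fold above ES, at least 20.8-fold above EHe and at least 33.9-fold above EHeD14. Hoxa10 signal well above background was not seen in the hybrid at any stage.

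Hoxa9, the neighbour of Hoxa10 and a gene of blood progenitors, had relative signals of -4.40 in EHe, -5.14 and -5.08 at day 7 and day 14, and -3.54 in Hepa1-6, and was not well above background in ES (-6.15). It was at least 3.63-fold higher in Hepa1-6 than in ES, a call lost after normexp (0.75). Hoxb13, a gene of the prostate and the tail end of the axis, had relative signals of -3.99 in ES, -4.11 in EHe, -2.94 at day 7, -4.14 at day 14 and -1.56 in Hepa1-6. Hepa1-6 was its brightest array, 5.39-fold above ES, and this call too was lost after normexp (1.41).

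Lower in Hepa1-6 than in ES were Hoxa7 by at least 3.22-fold and Hoxb9 by at least 13-fold, that is -3.71 on the log2 scale, which became -1.93 with the mean of its probes. The other Hoxb9 probe stood at -5.08 in ES and, not well above background, at -5.40 in Hepa1-6. For Hoxa7 the call was lost after normexp (-0.78), quantile normalization (-0.83) and median centring (-0.93). Set against Hepa1-6, EHe had 3 Hox genes called higher, with Hoxa7 and Hoxb9 among them, where 11.0% of all probes were, and 2 called lower, Hoxa10 and Hoxb13, where 8.52% were. EHeD14 had 1 called higher than Hepa1-6, Hoxb9, where 10.6% of all probes were, and 2 called lower, Hoxa10 and Hoxb13, where 8.45% were. Median differences of the Hox genes were 1.02 for EHe and 0.12 for EHeD14, against 0.23 and 0.16 over all probes. The EHe median fell to between 0.16 and 0.39 under 4 alternatives, and the EHeD14 median was -0.70 after quantile normalization and -0.65 after median centring, so its sign depended on the scaling. Hoxb9 was at least 4.18-fold higher in EHe and at least 5.46-fold higher in EHeD14, and with the mean of its probes (0.31 and 0.68), normexp (1.21 and 1.53) or quantile normalization (1.28 and 1.56) it was called in neither. Median centring lost the EHe call as well (1.43). The EHe call of Hoxa7 was lost after normexp (1.43).

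Read by cluster and position, genes called higher were 0 in each of the 4 clusters and each of the 3 positions for EHeD7 and for EHeD14 against EHe. For Hepa1-6 against ES, 2 of 11 Hoxa genes, 1 of 10 Hoxb genes, 0 of 6 Hoxc genes and 0 of 9 Hoxd genes were called higher. By position these were 0 of 11 anterior, 0 of 10 central and 3 of 15 posterior genes, and 1 of 15 posterior genes after normexp. The share over all probes was 9.25% for Hepa1-6 against ES, and 3.69% and 3.84% at day 7 and day 14 against EHe, and with groups this small no difference from it was tested.

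The remaining genes were seen on some arrays without a call in the comparisons described in full. Hoxa3, a gene of the thymus and pharyngeal arches, was level, at -1.75, -1.70, -1.89, -1.64 and -1.70 in ES, EHe, EHeD7, EHeD14 and Hepa1-6. Its other probe was not well above background on any array, so the level rests on 1 probe. Hoxa6 lay between -4.28 in Hepa1-6 and -3.19 in EHe, which was 2.13-fold higher. Hoxa2, which patterns the hindbrain and the arch below the jaw, was seen in EHe (-4.65) and Hepa1-6 (-4.78). Hoxb4, known for the growth of blood stem cells, was seen in EHeD7 (-5.82) and EHeD14 (-4.69), Hoxb6 in ES (-4.61) and EHeD7 (-5.64), Hoxd3 in EHeD7 (-5.73), and Hoxd4 in ES (-4.82). Most of these values lie close to the lowest signal called well above background, which was -5.40 in ES, -4.83 in EHe, -6.14 at day 7, -5.53 at day 14 and -5.24 in Hepa1-6. Because EHe had the highest and EHeD7 the lowest of these limits, a weak Hox gene was seen more easily in EHeD7.

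Of the Hox genes, 10 had 2 probes. For Hoxa13, Hoxb3, Hoxb8 and Hoxd9 neither probe was well above background on any array. The probes differed in their calls for Hoxa3, Hoxa4, Hoxb9, Hoxc10, Hoxd3 and Hoxd13. Hoxc10 was seen through its other probe in EHeD7 (-6.01) and not through the standing one. If any probe counts for its gene, 14 Hox genes in EHeD7 and 13 in EHeD14 were well above background, and the other arrays had the same numbers as before.

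Promoters are shown for Hoxa7, Hoxd1 and Hoxa10. Hoxa7 was called lower in EHeD14 than in EHe, but at neither day against ES. Hoxd1 was seen at both days of differentiation and on no other array, and Hoxa10 in Hepa1-6 alone. The RefSeq promoter table (GRCm38.p6) held 24 windows of Hox genes. The 250 bases before the start of each gene were searched on both strands for the retinoid receptor motif AGGTCA, the caudal motif TTTATG and the Hox-Pbx motif TGATTNAT, with overlaps allowed, and matches are in capitals. They were found in 14%, 10.8% and 2.82% of all 32851 windows and in 6, 5 and 2 of the 24 Hox windows. A match is a description of letters and not a binding site.
Hoxa7 (chr6:52218574-52218823, minus strand): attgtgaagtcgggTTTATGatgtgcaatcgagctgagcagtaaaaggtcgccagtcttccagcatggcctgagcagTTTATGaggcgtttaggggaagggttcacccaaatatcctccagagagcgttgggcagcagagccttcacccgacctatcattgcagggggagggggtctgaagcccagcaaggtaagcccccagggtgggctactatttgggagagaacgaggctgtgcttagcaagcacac
Hoxd1 (chr2:74762730-74762979, plus strand): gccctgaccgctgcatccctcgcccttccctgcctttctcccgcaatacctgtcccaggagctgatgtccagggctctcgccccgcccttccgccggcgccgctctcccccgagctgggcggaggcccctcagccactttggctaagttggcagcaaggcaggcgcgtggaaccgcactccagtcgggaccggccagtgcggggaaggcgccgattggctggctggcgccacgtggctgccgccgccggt
Hoxa10, upstream start (chr6:52240855-52241104, minus strand): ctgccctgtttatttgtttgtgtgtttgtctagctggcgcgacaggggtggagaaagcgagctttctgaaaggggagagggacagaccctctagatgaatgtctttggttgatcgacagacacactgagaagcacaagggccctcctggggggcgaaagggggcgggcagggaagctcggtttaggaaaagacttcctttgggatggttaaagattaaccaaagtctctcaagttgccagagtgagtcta
Hoxa10, downstream start (chr6:52234940-52235189, minus strand): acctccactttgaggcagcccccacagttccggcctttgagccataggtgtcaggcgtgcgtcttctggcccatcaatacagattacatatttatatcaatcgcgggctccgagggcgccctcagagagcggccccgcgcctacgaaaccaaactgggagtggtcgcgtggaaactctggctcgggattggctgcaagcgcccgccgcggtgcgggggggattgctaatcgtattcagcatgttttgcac
The Hoxa7 window held 2 caudal motifs and no other match, and the Hoxd1 and Hoxa10 windows held none of the 3. The Hoxd1 window had 24 CpG dinucleotides, the Hoxa7 window 7, and the Hoxa10 windows 7 and 20, where the median was 12.5 over the Hox windows and 6 over all windows.

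Hox proteins bind DNA together with the cofactors of the Pbx and Meis families, of which 9 of 9 listed genes were measured. For the counts in this and the other companion and marker lists, the shares over all probes called higher and lower were 3.69% and 2.58% at day 7, 3.84% and 2.71% at day 14, each against EHe, and 9.25% and 12.4% in Hepa1-6 against ES. In EHeD7 against EHe 2 were called higher, with Pknox2 among them, and 0 lower. In EHeD14 against EHe 1 was called higher and 0 lower. Pknox2 was 3.01-fold higher at day 7 through 1 of its 2 probes, the other being dim on each array. After quantile normalization 1 cofactor in place of 2 was called at day 7. Meis2 had relative signals of 0.11 in ES, -4.19 in EHe, -5.46 at day 7, -4.49 at day 14 and 0.54 in Hepa1-6, and so was low in the hybrid at each stage, 19.8-fold lower in EHe than in ES. Meis1 was seen in ES (-3.90) and Hepa1-6 (-3.69) through its standing probe and in EHeD7 (-5.44) and EHeD14 (-4.76) through the other. Between the parents 1 cofactor was called higher in Hepa1-6 and 0 lower.

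Caudal and T-box factors act upstream of the Hox clusters in the posterior embryo. Of 7 listed and measured, Gbx2 and Gdf11 listed beside them, 1 was called higher and 1 lower at each day against EHe. T, the brachyury factor of the primitive streak, stood at -4.40 in ES, 1.64 in EHeD7 and 1.74 in EHeD14 and was not well above background in EHe (-6.16) or Hepa1-6 (-7.44). It was above EHe by at least 88.5-fold at day 7 and at least 94.6-fold at day 14. Gbx2, a gene of the anterior hindbrain border and of pluripotent cells, was 70.9-fold lower at day 7 and at least 206-fold lower at day 14. Cdx1 and Cdx4 were not well above background on any array. Cdx2 was seen in ES (-3.44), EHeD7 (-5.73) and EHeD14 (-4.83) and was called in neither comparison with EHe (-7.11). Cdx2 and Gbx2 were called lower in Hepa1-6 than in ES, and 0 were called higher. After quantile normalization 1 gene of this list was called between these arrays.

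Of 19 listed genes of the retinoic acid pathway 18 were measured, Cyp26c1 having no probe named here. At day 7 against EHe 3 were called higher and 2 lower, and at day 14, 4 and 2. Cyp26a1, the enzyme that degrades retinoic acid and is itself induced by it, stood at -2.70 in ES, -2.67 in EHe, -1.35 in EHeD7 and 0.64 in EHeD14 and was not well above background in Hepa1-6 (-7.54). EHeD14 exceeded EHe 9.98-fold. Rarb, a receptor gene that responds to retinoic acid, stood at -3.13 in ES and -2.91 in EHe and was not well above background in EHeD7 (-6.31), EHeD14 (-5.83) or Hepa1-6 (-7.24), at least 9.34-fold and 6.13-fold lower at day 7 and day 14. These genes, both known to be induced by retinoic acid, thus differed in opposite directions at day 14. Stra8, a gene of germ cells induced by retinoic acid, was 27.1-fold and 118-fold lower. Dhrs3 was 11.6-fold and 15.4-fold higher and the receptor gene Rxrg 7.18-fold and 4.28-fold. Dhrs3 had been 22.9-fold lower in EHe (-4.22) than in ES (0.30), and at day 7 (-0.69) and day 14 (-0.27) it was still below ES. Aldh1a2, which makes retinoic acid in the early embryo, stood at -1.98, -1.37, -2.24, -2.38 and -4.47 on the 5 arrays and was not called at either day. In Hepa1-6 against ES 4 were called higher, Aldh1a1 with 659-fold the most and Rdh10 and Dhrs3 among the others, and 6 lower, Stra8 with at least 1370-fold the most, then Crabp1, Cyp26a1, Aldh1a2, Rarb and, through 1 of its 2 probes, Rarg.

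Polycomb proteins silence the Hox clusters and Trithorax proteins keep them active. Of 23 listed genes 21 were measured, without Kmt2a and Nipbl, for which no probe was named here. At day 7 against EHe 0 were called higher and 2 lower, Bmi1 with 5.21-fold the more, and at day 14, 0 and 1, Bmi1 (4.80-fold). The other Bmi1 probe stood at -2.13 in EHe, -4.43 in EHeD7 and -1.50 in EHeD14, so the probes disagreed at day 14. Ezh2, the enzyme that writes the Polycomb mark, had relative signals of 2.98 in ES, 3.40 in EHe, 2.83 at day 7, 2.78 at day 14 and 1.60 in Hepa1-6, and was not called at either day against EHe or in Hepa1-6 against ES. It was 3.47-fold higher in EHe than in Hepa1-6. In Hepa1-6 against ES 1 of the 21 was called higher and 9 lower, where 9.25% and 12.4% of all probes were. The largest falls were Cbx7 (at least 133-fold) and Jarid2 (20.0-fold). Then came Pcgf2 (3.57-fold), Suz12 (3.19-fold), Kmt2b (3.18-fold) and Ctcf (3.13-fold), and the others were smaller. All lower calls except Cbx7 and Jarid2 thus lay near the 3-fold threshold. Median centring moved the median of all probes between these arrays from -0.13 to 0.63, more than the margin of those calls.

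Homeobox genes related to the Hox family were largely unseen as well. Of 11 listed 10 were measured, Mnx1 having no probe named here, and 6 of them were not well above background on any array through the probe that stood for them, Gsx2, Pdx1, Evx1, Meox1, Meox2 and En1, whereas the other Meox1 probe was so in Hepa1-6 (-4.53). At each day against EHe 0 were called higher and 2 lower, En2 (6.89-fold and 12.0-fold) and Gbx1 (3.87-fold and 3.52-fold). Hepa1-6 set against ES gave 0 called higher and 2 lower, En2, not well above background in Hepa1-6, and Evx2 (4.39-fold). Only 1 gene was called there after quantile normalization. Evx2, which lies next to the Hoxd cluster, stood at -2.57, -3.92, -3.13, -3.37 and -4.71 in ES, EHe, EHeD7, EHeD14 and Hepa1-6. Evx2 was thus well above background on each array, whereas Hoxd13, nearest to it in the cluster, was so on 3 arrays and Hoxd10, Hoxd11 and Hoxd12 on none.

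The nearest measured genes outside the clusters, 4 for each, were mostly seen. All 4 neighbours of Hoxc (Calcoco1, Atp5g2, Smug1 and Cbx5) and all 4 of Hoxd (Evx2, Lnpk, Mtx2 and Hnrnpa3) were well above background on each array, and none of those 8 was called at either day against EHe. Of the Hoxa neighbours (Skap2, Snx10, Evx1 and Hibadh), Skap2 was called lower at both days, 6.08-fold and 5.62-fold, and Evx1 was unseen. Of the Hoxb neighbours (Ttll6, Atp5g1, Skap1 and Snx11), 0 were called at either day. Against ES, Hepa1-6 was called lower for Ttll6, Atp5g1, Skap1 and Evx2 and higher for Lnpk (3.69-fold).

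**Figure D3:**
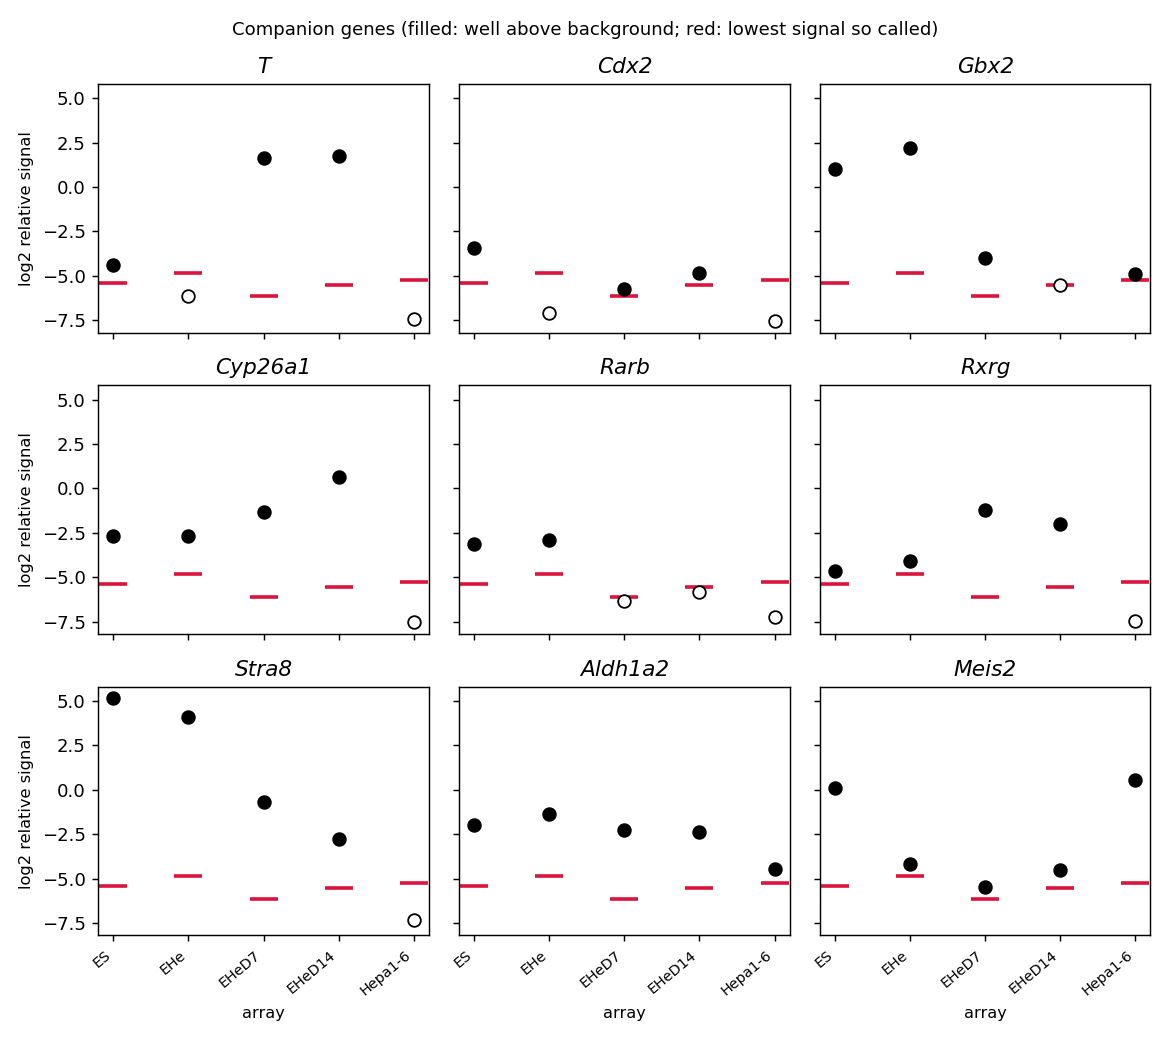
Each panel gives the log2 relative signal of a companion gene on the 5 arrays, with filled points well above background, open points not, and red marks for the lowest signal so called on each array. T is filled at 1.64 and 1.74 in EHeD7 and EHeD14 and open in EHe, and Rarb is open in both.

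Markers of cell types that a differentiating culture can hold also differed between the arrays, in both directions. Their part in the Hox differences was not tested. In bulk RNA, fewer cells of a type and less RNA in each cell cannot be told apart. Of 7 fibroblast and mesenchyme markers, 4 were called higher at day 7 and 5 at day 14 against EHe, and their summed relative signal was 1.63 in ES, 1.10 in EHe, 5.21 at day 7, 5.77 at day 14 and 0.123 in Hepa1-6, with Thy1 the brightest except in Hepa1-6, where Col1a2 was. Of 7 mesoderm markers 2 and 1 were called higher, and their sum was 0.303, 0.246, 3.68, 3.83 and 0.331, with T the brightest at both days and Mixl1 and Kdr unseen on each array. Of 6 neural markers 2 were called lower at each day, Pax6 and Tubb3, and their sum was 3.1, 6.29, 1.16, 1.28 and 0.558, with Tubb3 the brightest on each array. The other Pax6 probe was dim on each array. Map2 went the other way, 2.56-fold and 2.99-fold higher at day 7 and day 14, and Neurog2 and Olig2 were well above background at day 7 alone. Of 5 endoderm markers 0 and 3 were called higher, and their sum was 3.72, 0.363, 0.568, 1.46 and 11, with Gata6 the brightest except in Hepa1-6, where Foxa2 was. Of 6 posterior and tail bud markers 1 was called higher at each day, Fgf8, and their sum was 0.304, 0.166, 0.946, 1.91 and 0.0716. Cdx2 was the brightest of these in ES and Fgf8 on the other arrays. Of the ES cell markers 4 were called lower at each day, Sox2, Zfp42, Esrrb and Klf4, and 0 of the hepatocyte markers were called at either day through their standing probes. Another Hnf4a probe was well above background in EHe (-2.84) and not at day 7 (-7.75) or day 14 (-6.64), whereas the standing one was not in EHe (-5.49) and was at day 7 (-4.26) and day 14 (-4.35), so its probes disagreed.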

How the data were processed

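The 5 samples were grouped by their labels, 1 array each. The authors deposited 1 scanner table per array from Agilent Feature Extraction 10.7.3.1, whose processed signal is an intensity corrected for background and detrended within the array, with no normalization between arrays. The deposited series table held the same intensity values. Each table had 45018 spots. Control spots were left out, as were 73 to 174 outlier spots of the remaining 43379 per array. None of the 43379 was marked as saturated. The log2 of the signal was averaged over the spots of a probe and shifted by the 75th percentile of the array. By unversioned RefSeq accession 26888 of 41174 probes were named, for 18327 genes (table of assembly GRCm38.p6, used for names, chromosomes and gene order).

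The probe with the highest mean log2 signal over the arrays stood for a gene. A fold against a dim probe was computed from the higher of its own signal and the lowest signal called well above background. No test was possible and no p-value is given. Named are the Hox genes called in EHe against ES, EHeD7 and EHeD14 against EHe or Hepa1-6 against ES with their values on all arrays, other Hox genes by range or in short, and from each companion list the called genes, at most 6 by size, with fixed key members. Some genes under this rule are counted and not reported here by name or value, nor drawn. Hoxd1, Hoxc5 and the other single values were chosen after they were seen. Members and lists were chosen with earlier results of these data known. Marker and companion lists are described with their counts and were not tested.

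Alternatives were a 2-fold threshold, signals as measured, normexp with an offset of 50 on median spot and background signals, quantile normalization, median centring, the mean of the probes of a gene, the series table, ES as reference, other class borders, no filter on dim genes, medians without bounds that carry no fold, the standing probe chosen without Hepa1-6, and any probe for detection. The procedure was tested on simulated data, with large changes put into probes well above background at relative signals over -2. Most Hox signals were dimmer, so that simulation says little about calls among them. Analyses used R 4.3.3 with limma 3.58.1 for normexp and, for the rest, Python 3.11.15 with matplotlib 3.10.9, pandas 2.3.3 and numpy 2.4.6. By the labels the dye was Cy3, and the methods of the study name Cy5.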

Additional observations from a re-analysis of the deposited data

Results flagged for a closer look

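Hoxc5 differed from EHe in opposite directions at the 2 days of differentiation. The log2 difference was -1.55 in EHeD7, a bound (at least 2.93-fold lower), and 1.50 in EHeD14 (2.84-fold higher). Neither change alone passed 3-fold. After normexp they were -0.27 and 0.63. The change in EHeD7 passed 3-fold with signals as measured (-2.06), after quantile normalization (-1.72) and after median centring (-1.72), and the change in EHeD14 passed it under no alternative. Each value rests on 1 array and 1 probe, and the difference between the days was not tested.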

How the results depend on the processing

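The counts and medians were recomputed under the alternatives. Of 277 values, 216 stayed within 1.5 times the main count or within 0.15 of the main median (the spot SD of dim probes), 59 moved further and 2 changed sign with both medians over 0.15 from 0. Among the 59 were 3 medians that changed sign with 1 of the values closer to 0. Of 150 differences of single Hox genes, 127 kept their side of the threshold, 20 lost it, 3 passed it and 0 changed sign. The series table gave the main values. No paired analysis was possible because no group held over 1 array. Naming by accession was already the main rule, so that alternative was not run. Choosing the standing probes without the Hepa1-6 array, an alternative chosen after seeing the data, left the number of Hox genes called unchanged in each of 7 comparisons, and other counts were not recomputed that way. Leaving out of the medians the genes whose bound carries no fold, also chosen afterwards, moved 1 of 7. The cause of the changes below was not tested, except that normexp adds an offset that compresses dim signals by construction, and most Hox signals were dim.

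Hox genes called in either direction, in the order EHe against ES, EHeD7 against EHe, EHeD14 against EHe, EHeD14 against EHeD7, Hepa1-6 against ES, EHe against Hepa1-6 and EHeD14 against Hepa1-6, numbered 1, 3, 2, 1, 6, 5 and 3. At 2-fold they were 6, 9, 7, 3, 7, 9 and 6, with no share over all probes given at that threshold. With signals as measured they were 7, 5, 4, 1, 9, 6 and 8. After normexp they were 0, 1, 1, 0, 3, 3 and 2. After quantile normalization 6 were called in EHeD7 against EHe, and after median centring 0 in EHe against ES and 6 in EHeD7 against EHe, where the added calls were lower in EHeD7 (Hoxa2, Hoxa7 and Hoxc5). With ES as reference 5 were called at day 7. In Hepa1-6 against ES the split of higher and lower calls was 3 and 3, 4 and 2 after quantile normalization, 1 and 2 after normexp and 4 and 5 with signals as measured. In EHeD14 against Hepa1-6 it was 1 and 2, 0 and 4 after quantile normalization, 0 and 2 after normexp, and 5 and 3 with signals as measured.

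The median Hox difference in EHe against ES (main 0.27) was -0.09 after normexp. In EHeD7 against EHe (-0.95) it was -0.17 after normexp, -1.18 after quantile normalization, -1.12 after median centring, -0.75 as measured and -1.32 without the bounds that carry no fold. In EHeD14 against EHe (-0.78) it was -0.32 after normexp and -1.01 after quantile normalization. In EHeD14 against EHeD7 (0.16) it was 0.32 without the filter. In Hepa1-6 against ES (-0.42) it was 0.40 after quantile normalization, 0.34 after median centring and -0.65 as measured. In EHe against Hepa1-6 (1.02) it was 0.29 after normexp, 0.20 after quantile normalization, 0.39 after median centring, 0.16 with the mean of the probes and 0.58 without the filter. In EHeD14 against Hepa1-6 (0.12) it was -0.70 after quantile normalization, -0.65 after median centring and 0.51 as measured.

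Genes called higher by cluster and position moved from 0 to 1 at 2-fold for Hoxb, Hoxd, anterior and posterior genes in EHeD7 and for Hoxc, Hoxd, anterior and central genes in EHeD14, each against EHe. In Hepa1-6 against ES they moved after normexp from 2 to 1 (Hoxa), 1 to 0 (Hoxb) and 3 to 1 (posterior), and anterior genes from 0 to 1 as measured and after quantile normalization. Companion genes called moved at 2-fold to 3 cofactors in EHeD14 against EHe and 3 in Hepa1-6 against ES, 10 and 11 retinoic acid genes at day 7 and day 14, and 3 Polycomb and Trithorax genes at day 14. After quantile normalization they moved to 1 cofactor at day 7, and to 1 gene of the caudal and T-box list and 1 related homeobox gene in Hepa1-6 against ES. Of the 36 Hox genes, 18 were well above background on no array through the probe that stood for them and were not compared.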
